A study of Homo sapiens with 6 samples.

Results

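The family of miR-130, miR-301 and miR-454 was followed in A549 cells transfected with plain pcDNA4 (the empty vector, EV) or with pcDNA4-SMARCA4 (SMARCA4). Its members were all rows of the deposited miRNA table whose names belong to miR-130a, miR-130b, miR-301a, miR-301b or miR-454, on either arm, and 9 of the 787 rows met that rule. A549 is a long-established epithelial cell line from a human lung adenocarcinoma, and SMARCA4 (BRG1) is an ATPase of the SWI/SNF chromatin remodelling complex. Small RNA was sequenced from 3 libraries per group, taken 48 h after transient transfection. The submitters call the treatment a restoration of SMARCA4, and all 6 libraries come from 1 cell line and differ by the insert of the plasmid. The SMARCA4 transcript was not analysed here, and the share of cells that took up the plasmid remains not given in the sources used here.

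A miRNA hairpin is cut into a duplex whose 5p and 3p strands are named after their side of the hairpin, and the strand that is loaded into an Argonaute protein guides repression of mRNAs that pair with its seed, bases 2 to 8. The family is defined by its 3p arms, which carry the same seed, while the 5p arms have seeds of their own. In epithelial tumours the 3p arms have been studied as repressors of TGF-beta pathway components and of growth regulators. miR-130a is also known from blood vessel growth, and miR-301a from NF-kappa-B signalling.

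The mature sequences below, given to show what the members share and where they part, come from RefSeq (GRCh38.p14), in which 7 of the 9 names were matched. The seed is in capitals and each sequence runs 5′ to 3′.
miR-130b-3p: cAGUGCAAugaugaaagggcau
miR-301a-3p: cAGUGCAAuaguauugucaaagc
miR-301b-3p: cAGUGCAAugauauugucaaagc
miR-454-3p: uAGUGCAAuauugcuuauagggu
miR-130b-5p: aCUCUUUCccuguugcacuac
miR-454-5p: aCCCUAUCaauauugucucugc
The 4 printed 3p arms carry the identical 7-base seed, and the 2 printed 5p arms carry different ones. Over 2370 mature names in the RefSeq table, 6 carry this seed, of which miR-3666 and miR-4295 have no row here. The family names without a match were miR-130a-3p and miR-301b-5p. The seed of miR-130a-3p was therefore not checked here, and it is not among those 6. miR-301a-3p and miR-301b-3p are 23 bases each and differ at 2 positions, A10G and G11A, counted from the 5′ end with the base of miR-301a-3p first. miR-301b-3p and miR-130b-3p are identical over their first 12 bases. Beyond those first bases, miR-130b-3p and miR-301b-3p differ at 9 of 22 positions compared. How reads were assigned between alike members remains not given in the sources used here, and its part in their values was not tested.

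The 5 hairpins lie at 3 loci (GRCh38, GENCODE 29). MIR130A is alone on the plus strand of chromosome 11 (57641198 to 57641286), in an intron of the non-coding gene AP000662.1. MIR301A (59151136 to 59151221) and MIR454 (59137758 to 59137872) lie on the minus strand of chromosome 17 in introns of SKA2, which encodes a subunit of a kinetochore complex, with 13263 bases between them. MIR301B (21652981 to 21653058) and MIR130B (21653304 to 21653385) lie 245 bases apart on the plus strand of chromosome 22. Both are inside the non-coding gene AP000553.1, MIR301B in an intron and MIR130B overlapping an exon. Each hairpin has the strand of the gene around it.

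The libraries held between 701885 and 1079944 reads on listed miRNAs, except SMARCA4 replicate 2 with 7274329, which is 8.33 times the mean of the other 5. Fold changes of the family are therefore also given without that library. Epithelial marker miRNAs were measured for 6 of 7 names, with a summed normalized read count of 356 to 677 in EV and 425 to 623 in SMARCA4 libraries. Within that list miR-141-3p (31.4 against 182) and miR-203a-3p (4.79 against 39.7) were higher with SMARCA4 (limma adjusted p = 0.0124 each). Over all miRNAs tested, limma called 1.41%. The EV mean of miR-203a-3p lay under the value of the 3 reads that a count of 0 allows (4.91 to 5.71 in EV libraries). miR-200b-3p was at 422 against 190 (limma adjusted p = 0.109). Blood cell markers were measured for 3 of 7 names and their sum did not overlap between groups, at 5621 to 7213 against 7962 to 14458, almost all of it miR-486-5p. The part of these markers in the results was not tested, and miR-142-3p, miR-144-3p, miR-223-3p and miR-451a have no row here. The same holds for miR-205-5p of the epithelial list, miR-206, miR-122-5p and miR-124-3p of the muscle, liver and neuron list, and miR-199a-3p of the stromal list. Of the muscle, liver and neuron markers, miR-1-3p and miR-133a-3p were at 0 in every library. But miR-128-3p averaged 1387 ± 393 in EV and 1630 ± 182 in SMARCA4 libraries (SD, n = 3 each; limma adjusted p = 0.617). Means of miR-9-5p were 143 ± 3.21 and 246 ± 157 (SD, n = 3 each; limma adjusted p = 0.421), with a wide spread in the SMARCA4 libraries. The summed level of this list was 1080 to 1791 in EV and 1785 to 1964 in SMARCA4 libraries. Among stromal and endothelial markers, miR-214-3p was at 0 in every library, and miR-126-3p averaged 181 in EV and 172 in SMARCA4 libraries. In the same list miR-143-3p averaged 38.8 in EV and 71.5 in SMARCA4 libraries, with overlapping groups (limma adjusted p = 0.449). miR-145-5p was at 0 in EV and averaged 0.141 with SMARCA4. The sum of this list was 196 to 238 in EV and 214 to 272 in SMARCA4 libraries. In bulk RNA, fewer cells with a miRNA and less of it per cell cannot be told apart.

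No arm of the family passed the test between the groups, and the smallest adjusted p was that of miR-130a-3p. miR-130a-3p was about 2-fold higher with SMARCA4, the arms of miR-130b differed in opposite directions, and miR-301a-3p had nearly the same mean in both groups. The test was limma on log2(value + 1) with Benjamini-Hochberg adjustment over 637 miRNAs with a mean of at least 1, which took in 8 of the 9 family rows. It called 0 of these 8, beside 1.41% of all miRNAs tested at an adjusted p under 0.05. At an unadjusted p under 0.05 it had 2 of 8, beside 22.6% of all. At an adjusted p under 0.05, edgeR called 0 of the family and 8 miRNAs over all. DESeq2 called 1 of the family, beside 11.2% of the miRNAs to which it gave an adjusted p. The groups of 3 did not overlap for 3 of 8, beside 31.1% of all. Of these 3, 2 were higher and 1 lower with SMARCA4, beside 15.9% and 15.2% of all miRNAs tested. All 5 3p arms had a log2 fold change above 0, with a median of 0.44, while the median of all tested miRNAs was −0.047. Of the 3 tested 5p arms, miR-130b-5p was below 0 in every alternative run, miR-454-5p was near 0 with a sign that depended on the test, and miR-301a-5p had too few reads for a fold. Rescaling every library to the same total lowered the median of all miRNAs by 0.26 on the log2 scale. It left 3 of the 3p arms above 0, with miR-301a-3p and miR-301b-3p below.

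**Figure D1:**
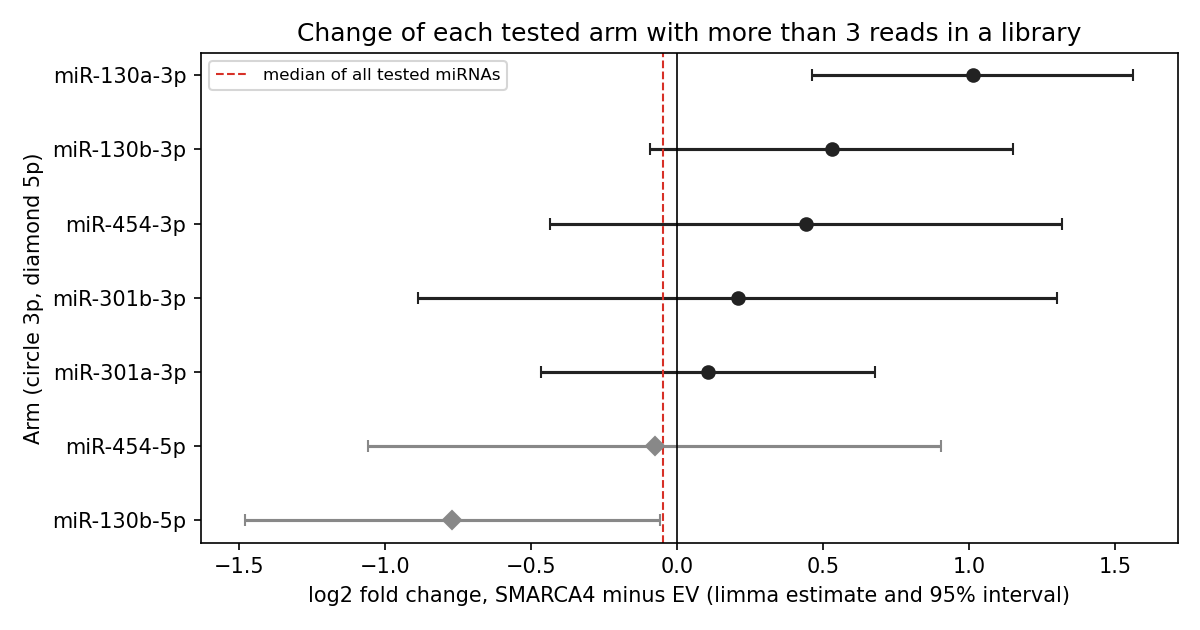
Log2 fold change of 7 tested arms (miR-301a-5p, with at most 3 reads in any library, is not drawn), SMARCA4 minus EV, on log2(value + 1), with the limma estimate (circles for 3p, diamonds for 5p) and its 95% interval; the dashed line is the median of all 637 tested miRNAs at −0.047. miR-130a-3p and miR-130b-5p have intervals that do not reach 0 before adjustment, on opposite sides.

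hsa-miR-130a-3p was the most abundant member in every library. Its normalized read count was 1131, 1120 and 1179 in EV replicates 1, 2 and 3. With SMARCA4 it was 2275, 2585 and 2090 in replicates 1, 2 and 3. Every SMARCA4 library lay above every EV library, and the EV libraries lay within a few percent of each other. The means were 1143 ± 31.2 and 2317 ± 250 (SD, n = 3 each), a 2.03-fold difference (limma log2 fold change 1.01, SE 0.24, 95% interval 0.46 to 1.56, adjusted p = 0.0656). Each value rests on 589 to 885 reads, and on 6119 in SMARCA4 replicate 2. By unadjusted limma p (0.00235) it ranked 20 of 637, and 93 miRNAs, miR-130a-3p included, had a log2 fold change at least as large. Without SMARCA4 replicate 2 the log2 fold change was 0.93 and the adjusted p 0.0325, in a setting where limma called 6.44% of all miRNAs. DESeq2 on the recovered reads also called it (log2 fold change 1.01, adjusted p = 0.0215), beside 11.2% of the miRNAs to which it gave an adjusted p. With libraries rescaled to the same total the log2 fold change was 0.69 (limma adjusted p = 0.178).

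**Figure D2:**
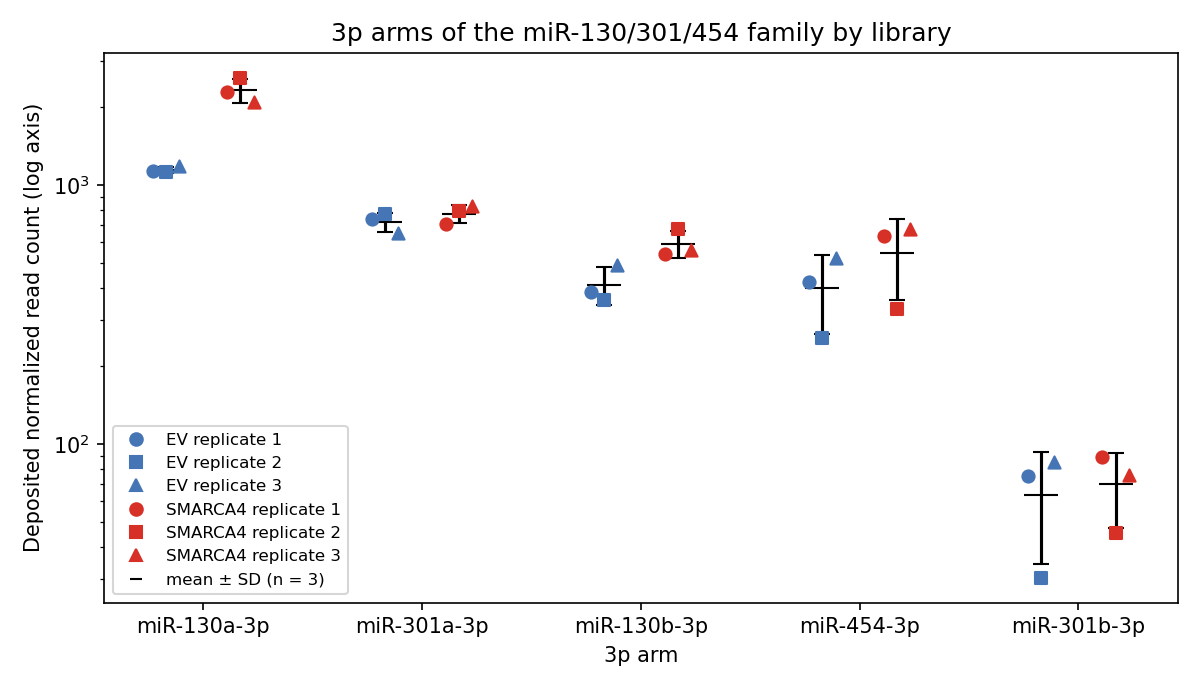
Deposited normalized read counts of the 5 family 3p arms on a log axis, by library (blue EV, red SMARCA4; circle, square and triangle for replicates 1, 2 and 3), with the mean and SD of 3 libraries. For miR-130a-3p and miR-130b-3p all red points lie above all blue points; for miR-301b-3p and miR-454-3p the squares, replicate 2, lie lowest in both groups.

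hsa-miR-130b-3p was higher and miR-130b-5p lower with SMARCA4, although both come from 1 hairpin. The 3p arm was at 387, 358 and 489 in EV and at 541, 673 and 560 in SMARCA4 replicates 1, 2 and 3. The 5p arm, the scarcer strand, was at 160, 124 and 160 in EV and at 75.8, 92.9 and 89.7 in SMARCA4 replicates 1, 2 and 3. For neither arm did the groups overlap. Mean levels were 411 ± 69.0 against 591 ± 71.1 for the 3p arm (SD, n = 3 each; limma log2 fold change 0.53, SE 0.28, adjusted p = 0.278). They were 148 ± 21.2 against 86.2 ± 9.10 for the 5p arm (SD, n = 3 each; limma log2 fold change −0.77, SE 0.31, adjusted p = 0.188). Neither passed the test over all miRNAs. Without SMARCA4 replicate 2 the log2 fold changes were 0.43 and −0.83 (limma adjusted p = 0.28 and 0.12). The hairpin below (RefSeq, GRCh38.p14, chr22:21653304-21653385, plus strand) shows both arms in capitals, the 5p arm first.
MIR130B: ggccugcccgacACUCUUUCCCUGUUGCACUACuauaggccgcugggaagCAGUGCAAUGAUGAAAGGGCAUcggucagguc

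The 3p over 5p ratio of miR-130b does not depend on the scaling of a library, because both arms carry the same factor. It was 2.41, 2.89 and 3.05 in EV and 7.14, 7.24 and 6.24 in SMARCA4 libraries, in the order of replicates 1, 2 and 3. The lowest SMARCA4 library was thus above the highest EV library. On log2((3p + 1)/(5p + 1)) the groups were at 1.46 ± 0.18 and 2.76 ± 0.12 (SD, n = 3 each), a difference of 1.30 (exact two-sided permutation p = 0.1, the smallest that 3 against 3 allows, and 0.3 when adjusted over the 3 hairpins compared). The 5p values behind it rest on 29 to 98 reads, and on 220 in SMARCA4 replicate 2. A limma fit of the same log2 ratio over all 155 names with both arms, added after the data were seen, gave miR-130b an unadjusted p of 0.0198 and an adjusted p of 0.111. That fit called 3.23% of the names. A higher 3p arm together with a lower 5p arm, both without overlap of the groups, occurred for 4 of the 155 names (2.58%), which were miR-34c, miR-130b, miR-152 and miR-221. The reverse occurred for 3 of them (1.94%). For single miRNAs, the groups did not overlap in 15.9% (higher) and 15.2% (lower) of all tested. The count of opposite arms was not planned and carries no test, so it does not show that the pattern of miR-130b is unusual. miR-34c, miR-152 and miR-221 were named after their values were seen.

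**Figure D3:**
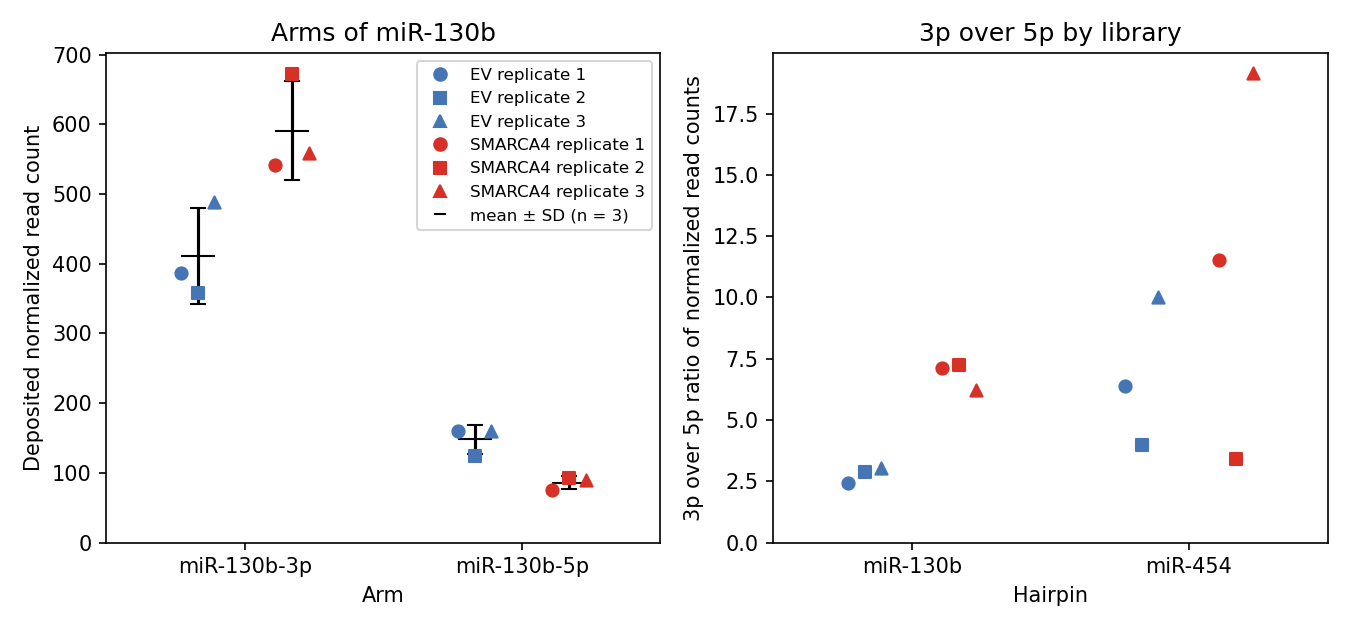
Left, normalized read counts of the 2 arms of miR-130b by library (blue EV, red SMARCA4), with the mean and SD of 3 libraries; right, the 3p over 5p ratio of miR-130b and miR-454 in each library. The miR-130b ratio is 2.41 to 3.05 in EV and 6.24 to 7.24 in SMARCA4 libraries, while the miR-454 ratios of the groups overlap.

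The miR-301a and miR-454 hairpins share a host gene, and neither 3p arm passed the test. hsa-miR-301a-3p, the second most abundant member by its mean, was at 735, 770 and 652 in EV and at 703, 791 and 826 in SMARCA4 replicates 1, 2 and 3. The groups overlapped, with means of 719 ± 60.5 and 774 ± 63.4 (SD, n = 3 each). Its log2 fold change was 0.11 (SE 0.25, limma adjusted p = 0.842), with a 95% interval from −0.47 to 0.68. That interval spans 0.723-fold to 1.60-fold, so a difference of either sign within those bounds is compatible with these values. Without SMARCA4 replicate 2 the log2 fold change was 0.087 (limma adjusted p = 0.824). hsa-miR-454-3p was at 422, 257 and 523 in EV and at 633, 332 and 678 in SMARCA4 replicates 1, 2 and 3. The groups overlapped, and replicate 2 was the lowest of each. Means of miR-454-3p were 401 ± 135 and 548 ± 188 (SD, n = 3 each; limma log2 fold change 0.44, SE 0.39, adjusted p = 0.518). Without SMARCA4 replicate 2 its log2 fold change was 0.77 (limma adjusted p = 0.165), and without EV replicate 2 it was 0.15 (limma adjusted p = 0.854).

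The ratio of the miR-301a-3p to the miR-454-3p level varied more within the groups than between them. It was 1.74, 3.0 and 1.25 in EV and 1.11, 2.38 and 1.22 in SMARCA4 replicates 1, 2 and 3. The difference of the mean log2 ratios was −0.34 (exact two-sided permutation p = 0.5, also after adjustment over 2 pairs). Replicate 2 had the highest ratio of each group. Ligation efficiency differs between miRNAs, so such a ratio compares libraries and does not give the molar ratio of the 2 miRNAs.

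The 5p arms from the SKA2 introns were scarce. miR-454-5p was at 66.0, 64.7 and 52.3 in EV and at 54.9, 97.2 and 35.4 in SMARCA4 replicates 1, 2 and 3. The SMARCA4 libraries held both the highest and the lowest value. Its means were 61.0 ± 7.54 and 62.5 ± 31.6 (SD, n = 3 each; limma log2 fold change −0.077, SE 0.43, adjusted p = 0.950), and the sign of the log2 fold change was positive by edgeR and by DESeq2. Without SMARCA4 replicate 2 the limma value was −0.45 (adjusted p = 0.483). The 3p over 5p ratio of miR-454 was 6.40, 3.97 and 10.0 in EV and 11.5, 3.42 and 19.1 in SMARCA4 replicates 1, 2 and 3, with overlapping groups (difference of mean log2 ratios 0.52, exact two-sided permutation p = 0.6, also 0.6 when adjusted). miR-301a-5p had 2, 3 and 1 reads in EV and 0, 1 and 1 in SMARCA4 replicates 1, 2 and 3. Both groups were at or under the 3 reads that a count of 0 allows, so no fold is given for this arm or for its ratio to the 3p arm (limma adjusted p = 0.285 for the arm).

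The chromosome 22 hairpins gave arms of very different level. miR-301b-3p was at 75.4, 30.4 and 85.0 in EV and at 88.9, 45.2 and 75.6 in SMARCA4 replicates 1, 2 and 3. The groups overlapped, and replicate 2 was again the lowest of each. Its means were 63.6 ± 29.1 and 69.9 ± 22.4 (SD, n = 3 each; limma log2 fold change 0.21, SE 0.49, 95% interval −0.89 to 1.30, adjusted p = 0.839). Without EV replicate 2 the log2 fold change was −0.25, and without SMARCA4 replicate 2 it was 0.49. EV replicate 2 held 16 reads of it, and the other libraries 32 to 107. The ratio of miR-301b-3p to miR-130b-3p, whose hairpins are 245 bases apart, was 0.195, 0.0851 and 0.174 in EV and 0.164, 0.0672 and 0.135 in SMARCA4 replicates 1, 2 and 3 (difference of mean log2 ratios −0.32, exact two-sided permutation p = 0.5). Without SMARCA4 replicate 2 that difference was 0.056. miR-301b-5p was read 1 time, in EV replicate 2, and was not tested.

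The 2 closest pairs of 3p arm profiles over the 6 libraries joined arms from different loci. Likeness was measured as the root-mean-square difference of log2(value + 1) after centring each arm on its own mean, which carries no test. The closest pair was miR-301b-3p with miR-454-3p, from chromosomes 22 and 17, at 0.23. Next came miR-130a-3p with miR-130b-3p, from chromosomes 11 and 22, at 0.27. The pairs with neighbouring hairpins were farther apart, at 0.53 for miR-301a-3p with miR-454-3p and 0.56 for miR-130b-3p with miR-301b-3p. Both were below the median distance of these arms to miRNAs outside the family with a mean of at least 10. That median was 0.62 for miR-301a-3p, 0.80 for miR-454-3p, 0.65 for miR-130b-3p and 0.83 for miR-301b-3p. Whether profiles follow the loci was not tested. The widest difference was 0.70, between miR-130a-3p and miR-301b-3p. Both miR-301b-3p and miR-454-3p had their lowest value in replicate 2 of each group, a pattern of 2 of the 8 tested members and of 15.5% of all miRNAs tested.

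**Figure D4:**
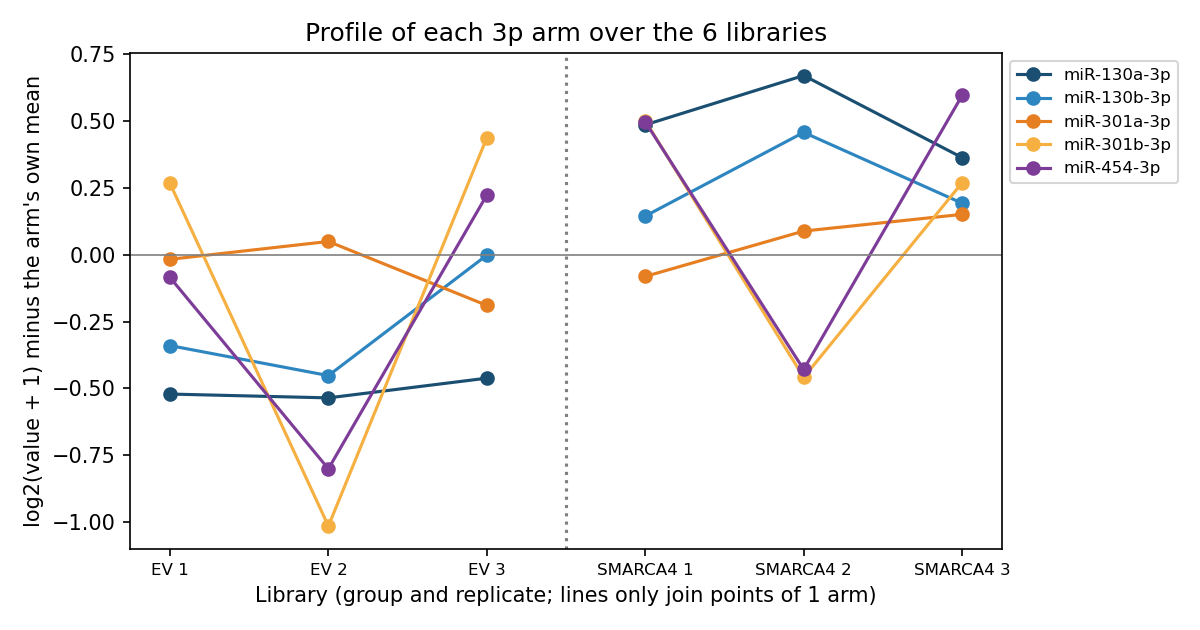
Log2(value + 1) of each 3p arm minus its own mean over the 6 libraries; lines join the points of 1 arm and imply no order of the replicates. miR-301b-3p and miR-454-3p dip together in replicate 2 of both groups, while miR-130a-3p is about 0.5 below its mean in all EV libraries and above its mean in all SMARCA4 libraries.

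Outside the family, the same measure over 414 miRNAs with a mean of at least 10 placed miR-152-3p closest to miR-130a-3p, at 0.10, followed by miR-28-3p at 0.16, where the median distance was 0.76. miR-152-3p averaged 153 ± 15.5 in EV and 285 ± 28.1 in SMARCA4 libraries (SD, n = 3 each; limma adjusted p = 0.110). Closest to miR-130b-3p were miR-151a-3p (0.042) and miR-192-5p (0.075). miR-301a-3p had miR-125b-2-3p (0.11) and miR-27b-5p (0.13) nearest. For miR-301b-3p the nearest were miR-374a-5p (0.10) and miR-501-3p (0.13), and for miR-454-3p they were miR-197-3p (0.14) and miR-23a-3p (0.15). None of these 10 was called between the groups by limma, beside 1.41% of all miRNAs tested. They were picked for their likeness to arms that were not called, so this adds no evidence.

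Summed over the 5 3p arms, the family stood at 2751, 2535 and 2928 normalized read counts in EV and at 4241, 4427 and 4229 in SMARCA4 replicates 1, 2 and 3. The sums did not overlap, with means of 2738 ± 197 and 4299 ± 111 (SD, n = 3 each), a 1.57-fold difference given without a test (log2 ratio of the means 0.65, and 0.63 without SMARCA4 replicate 2). As a share of all miRNA reads the sum was 0.166%, 0.143% and 0.166% in EV and 0.231%, 0.144% and 0.233% in SMARCA4 replicates 1, 2 and 3. On that scale the groups overlapped, because SMARCA4 replicate 2, which has the largest deposited total, had a share like that of the EV libraries.

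The make-up of the sum does not depend on library scaling. miR-130a-3p made up 41.1%, 44.2% and 40.3% of it in EV and 53.6%, 58.4% and 49.4% in SMARCA4 replicates 1, 2 and 3. Its share was higher in each SMARCA4 library than in any EV library. miR-301a-3p made up 26.7%, 30.4% and 22.3% in EV and 16.6%, 17.9% and 19.5% in SMARCA4 replicates 1, 2 and 3, with all SMARCA4 libraries lower. The shares add up to the whole, so a larger share of 1 arm lowers the others, and the normalized level of miR-301a-3p itself overlapped between groups. The shares of miR-130b-3p (12.8% to 16.7%), miR-454-3p (7.51% to 17.9%) and miR-301b-3p (1.02% to 2.90%) overlapped between groups.

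**Figure D5:**
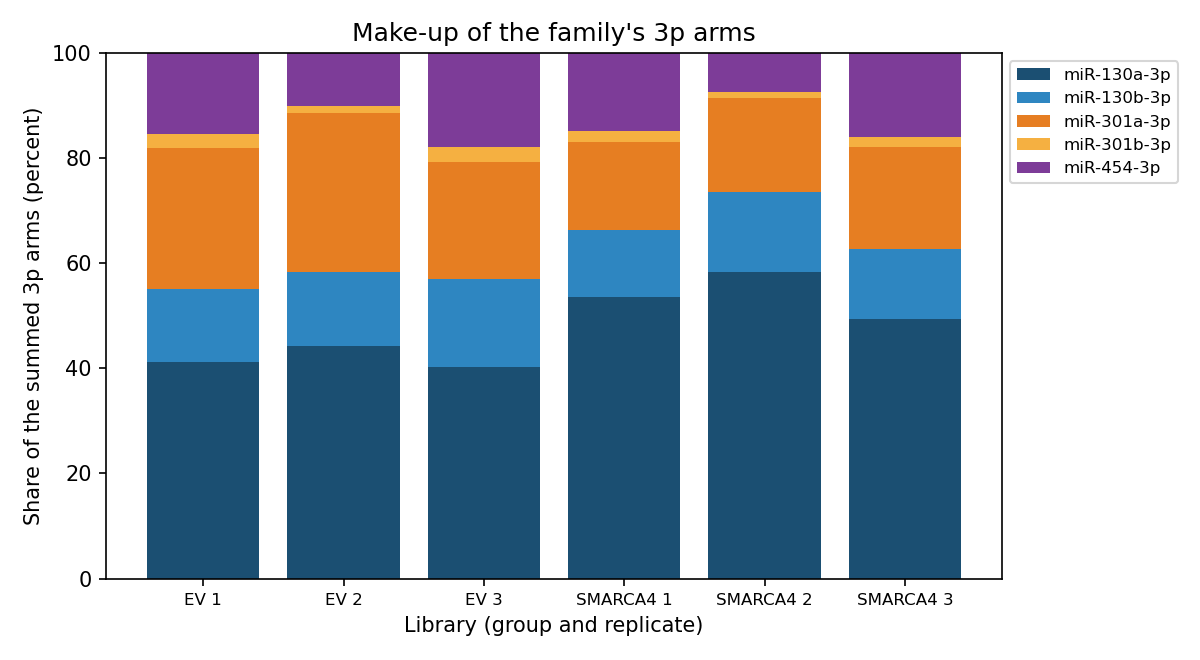
Share of each 3p arm in the summed 3p arms of the family, in percent, as stacked bars for each of the 6 libraries. The miR-130a-3p segment is 40.3% to 44.2% in EV and 49.4% to 58.4% in SMARCA4 libraries, and the miR-301a-3p segment is 22.3% to 30.4% and 16.6% to 19.5%.

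In empty vector cells the order of the mean levels was miR-130a-3p, miR-301a-3p, miR-130b-3p, miR-454-3p and miR-301b-3p. miR-130b-3p and miR-454-3p, neighbours in that order, did not differ beyond their spread (411 ± 69.0 and 401 ± 135). miR-301a-3p lay above both in each EV library, and miR-130a-3p above all. The order of the means was the same with SMARCA4, where miR-130b-3p and miR-454-3p again lay within their spread (591 ± 71.1 and 548 ± 188). By mean over all libraries miR-130a-3p ranked 60 among the 637 tested miRNAs and miR-301b-3p ranked 240. Mature miRNAs are of nearly equal length, but ligation differs between them, so the order is one of reads.

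Other families carry a seed that holds most of the same bases at a shifted position. Examples are shown with their seeds in capitals.
miR-19b-3p: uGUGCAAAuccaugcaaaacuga
miR-148b-3p: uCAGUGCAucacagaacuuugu
miR-152-3p: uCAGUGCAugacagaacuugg
miR-17-5p: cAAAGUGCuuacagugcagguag
Over all miRNAs tested, limma called 1.41% and had 22.6% at an unadjusted p under 0.05. edgeR called 8 miRNAs, and DESeq2 11.2% of those given an adjusted p. In the list of miR-19, miR-148 and miR-152 arms, 0 of 5 were called in either direction by limma, edgeR or DESeq2. An unadjusted limma p under 0.05 was seen for 2, miR-148b-3p (lower with SMARCA4) and miR-152-3p (higher). The log2 fold changes of this list were above 0 for 2 and below 0 for 3, with a median of −0.11. Its most abundant members were miR-148b-3p, at 2977 ± 441 in EV and 1607 ± 684 in SMARCA4 libraries, and miR-19b-3p, at 751 ± 86.4 and 932 ± 87.7 (SD, n = 3 each; limma adjusted p = 0.129 and 0.483). In the list of arms with the seed of miR-17, 5 of 6 were tested, and 0 were called by limma, edgeR or DESeq2, with 0 at an unadjusted limma p under 0.05. Their log2 fold changes were above 0 for 1 and below 0 for 4, with a median of −0.46. The most abundant there were miR-93-5p, at 3009 ± 298 and 3841 ± 1293, and miR-20a-5p, at 985 ± 131 and 591 ± 256 (SD, n = 3 each; limma adjusted p = 0.553 and 0.226). The tested 3p arms of the family described here had a median of 0.44 and all tested miRNAs one of −0.047, and no difference between these lists was tested.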

How the data were processed

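Total RNA was made into small RNA libraries with a TruSeq kit, per the labels' protocols. The submitters' processing notes name bcl2fastq 2.18.0.12 and the build GRCh38; aligner, counting program and miRNA annotation: not given in the sources used here. The authors deposited 1 normalized signal value for each mature miRNA and library, a read count scaled by a library factor, and the table's name speaks of TMM. All values (100%) were whole multiples of the step of 1 read within 1e-06 reads, so reads were recovered. The step is 0.422 to 2.61 normalized counts.

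Groups and replicate numbers come from the titles, and the design text calls the replicates independent. limma 3.58.1 (R 4.3.3, mean-variance trend) was run on log2(value + 1) for 637 miRNAs with a mean of at least 1, with a threshold of 0.05 on Benjamini-Hochberg adjusted p. Fold changes on this scale understate changes of scarce miRNAs. Ratios were compared with exact permutation tests. edgeR 4.0.16 (quasi-likelihood) and DESeq2 1.42.0 on recovered reads, other pseudocounts, filters and scalings, and single libraries left out were alternatives. Named miRNAs were all family arms, other names with the family seed, the 2 nearest profiles of each 3p arm, and markers from the cell type lists. Of each comparison list, levels were given for the 2 most abundant members, and further members were named for a sequence or an unadjusted p. miR-34c, miR-152 and miR-221 were named for their arms after their values were seen. Members and lists were chosen with earlier results of these data known. All pairs of libraries differed by more than sampling noise (lowest chi-square per degree of freedom 6.61). Count limits cover counting error only, since no molecular identifiers are mentioned.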

Additional observations from a re-analysis of the deposited data

How the results depend on the processing

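Directions of miR-130a-3p, miR-130b-3p, miR-130b-5p and miR-454-3p were the same in all 17 alternatives run, with log2 fold changes of 0.69 to 1.08, 0.21 to 0.66, −1.09 to −0.68 and 0.12 to 0.77. The number of family arms called was 1 by DESeq2 and 0 to 1 with 1 library left out, each time miR-130a-3p, whose adjusted p ranged from 0.0215 to 0.223. Over all miRNAs the count was 9 by limma and 8 by edgeR, both on the 637 miRNAs with a mean of at least 1. DESeq2 was run on all 787 rows, left 376 adjusted p-values undefined and called 46 of the remaining 411. With 1 library left out, limma called 0 to 41. The count was 0 without EV replicate 1 or SMARCA4 replicate 1, and 2 without EV replicate 3. It was 1 without SMARCA4 replicate 3 and 41 without SMARCA4 replicate 2. The unadjusted counts were 103 and 119 where the count was 0. The cause was not tested. Signs turned for miR-301a-3p with the same total (−0.22) and quantile normalization (−0.039), for miR-301b-3p with the same total (−0.11) and without EV replicate 2 (−0.25; up to 0.49 with another library left out), and for miR-454-5p by edgeR (0.059), by DESeq2 (0.046) and without SMARCA4 replicate 3 (0.26; down to −0.45 with another left out). With 1 library left out, the difference in mean log2 arm ratio was 1.20 to 1.37 for miR-130b and −0.0098 to 1.22 for miR-454. The same range was −0.68 to 0.0041 for miR-301a-3p over miR-454-3p (the latter without EV replicate 2) and −0.68 to 0.056 for miR-301b-3p over miR-130b-3p. The log2 ratio of the summed 3p arms was 0.65, and 0.36 with the same total.

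Same-numbered libraries deviated together only weakly (correlations of 0.014 to 0.088, none over 0.1), so the numbers were not taken as a pairing. A limma fit with the replicate block called 13 miRNAs, none of the family (miR-130a-3p at an adjusted p of 0.0555). In that fit miR-454-3p, lowest in replicate 2 of both groups, had a limma adjusted p of 0.230, against 0.518 without the block. Of the 6 libraries, 5 correlated best with their own number. miR-301a-5p and miR-301b-5p had at most 3 reads in any library, and 1 and 0 in SMARCA4 replicate 2, the deepest.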
